A study of Mus musculus with 16 samples.

Results

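The 9 voltage-gated sodium channel subunit genes measured here were Scn1a, Scn3a, Scn7a, Scn8a, Scn9a, Scn10a and Scn11a, which encode alpha subunits, and Scn2b and Scn4b, which encode beta subunits. They were taken by symbol from a table of raw RNA sequencing counts with 24982 gene entries, and all 9 were found there. The tissue was lumbar dorsal root ganglion of C57BL/6 mice aged 10 to 12 weeks, collected on the injected side. The groups were TrkA/C knock-in (KI) mice given complete Freund's adjuvant (CFA, an oil emulsion that inflames the joint) into the ankle, KI mice given vehicle, wild-type (WT) mice given CFA and WT mice given vehicle. The sample titles name the vehicle as saline, so CFA is compared with saline and not with its oil alone. Ganglia were taken 14 days after the injection. Each group had 4 libraries, and each library pooled 6 ganglia of 2 mice, so that a value is a mean over animals and neuron types. How the TrkA/C allele was built and its zygosity are not stated in the labels. In published work TrkA/C is a chimeric receptor that joins the outer part of TrkA, the nerve growth factor receptor, to the inner part of TrkC, the neurotrophin-3 receptor.

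A voltage-gated sodium channel opens when the membrane depolarises and lets in the sodium current that drives the upstroke of an action potential. The large alpha subunit forms the pore, the voltage sensors and the inactivation gate. The small beta subunits cross the membrane a single time, carry an immunoglobulin-like fold outside, and tune the speed and surface level of the channel. In sensory ganglia the alpha subunits divide by neuron type, with Scn10a (Nav1.8) and Scn11a (Nav1.9) largely in small nociceptors, Scn1a (Nav1.1) and Scn8a (Nav1.6) mainly in myelinated fibres, and Scn9a (Nav1.7) across many types. Scn7a (Nax) is an atypical member that senses extracellular sodium, and Scn3a (Nav1.3) is mainly an embryonic channel that is known to return after nerve injury in rats.

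Reads were 50 bases long, and the alpha subunits resemble each other, so the bases that tell them apart decide how a read is assigned. In aligned coding sequences (GENCODE, build GRCm38), Scn3a and Scn9a held a run of 184 identical bases, Scn1a and Scn3a one of 143, and Scn1a and Scn9a one of 103. Scn11a shared no run longer than 30 bases with another alpha member, and its identity to them was 51.3% to 60.3%. Of all 50-base stretches of a gene's transcripts, the share that also occurred in another gene was 0% for Scn11a, Scn7a and Scn4b and 0.0374% for Scn8a. It was 1.01% for Scn2b, 1.66% for Scn10a, 4.03% for Scn1a, 4.16% for Scn9a and 6.49% for Scn3a. Low-level values of Scn3a are therefore uncertain, since a read from a stretch shared with the far more abundant Scn9a or Scn1a does not tell the genes apart. Whether such reads were dropped or assigned to a gene was not examined. By contrast, no 50-base stretch of Scn11a occurs in another annotated gene. Scn9a also overlapped an antisense gene, Gm13629, over 180 exon bases, and the strand setting of the counting is not given in the sources used here.

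The members lay in few places of the genome (RefSeq GRCm38.p6, the build of the counts). Scn3a (chromosome 2, 65457118 to 65567591), Scn1a (66270781 to 66440837), Scn9a (66480080 to 66635114) and Scn7a (66673426 to 66784910) were on the minus strand of chromosome 2. Scn10a (119608456 to 119719322) and Scn11a (119753763 to 119825456) were on the minus strand of chromosome 9. Scn2b (45117876 to 45130070) and Scn4b (45138624 to 45154155) were on the plus strand of the same chromosome, and Scn8a (100869863 to 101045938) was on the plus strand of chromosome 15.

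Library totals ran from 31238001 to 40910947 counts in KI CFA, 27698035 to 37576008 in KI vehicle, 28490746 to 34348881 in WT CFA and 22742209 to 31816832 in WT vehicle. Ntrk3, which encodes TrkC and checks the genotype labels, lay at 99.1 to 138 CPM (TMM-normalised read counts scaled to library size) in the 8 KI libraries and at 29.3 to 61.4 CPM in the 8 WT libraries. The genotype tag of WT CFA 1 reads knock-in while its title reads WT, and its Ntrk3 level of 48.4 CPM was within the WT range. All 10 markers of sensory neurons were detected, with a summed level of 13116 to 15529 CPM over the 16 libraries. Some libraries stood apart. Skeletal muscle markers, at or near 0 in 9 libraries with sums under 5 CPM, reached 969 CPM in KI vehicle 1 and 922 CPM in KI vehicle 4. WT vehicle 4 was the lowest of all 16 libraries in 6 of the 9 members (Scn1a, Scn8a, Scn9a, Scn10a, Scn11a and Scn4b). The 9 members together took 0.338% of its counts, against 0.396% to 0.444% in the other 15. In bulk ganglia, fewer cells of a type and less RNA per cell cannot be told apart.

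**Figure D1:**
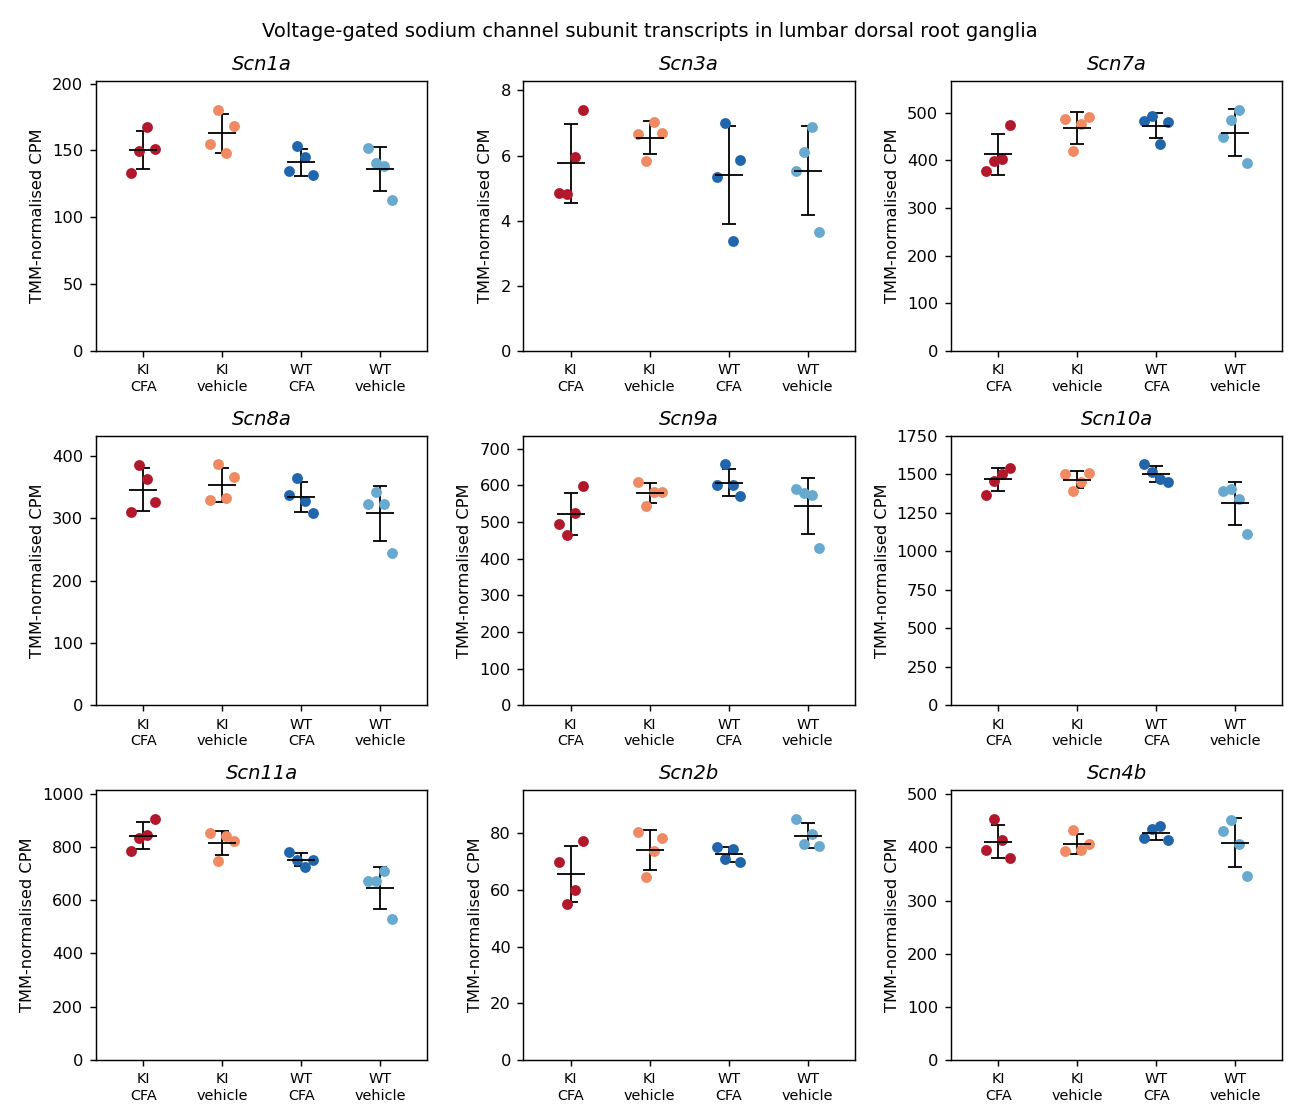
Each panel plots 1 subunit, with TMM-normalised CPM on the vertical axis from 0 and the groups KI CFA, KI vehicle, WT CFA and WT vehicle along the horizontal axis. Points are libraries, the long tick is the mean and the bar is the SD (n = 4). Scn11a is the member whose KI and WT libraries do not overlap within either injection, and the lowest WT vehicle point in every panel is WT vehicle 4.

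Per length of transcript, Scn10a was the most abundant of the 12 sodium channel subunit transcripts compared and Scn3a the least. Levels between genes are compared here as CPM per kb of exon, averaged over the 16 libraries. Scn10a stood at 180, Scn11a at 129 and the beta subunit Scn4b at 83.0. Their ranges overlapped between neighbours, but within each of the 16 libraries Scn10a was above Scn11a and Scn11a above Scn4b. Scn7a had 61.7 CPM per kb of exon and Scn9a 44.1. Scn8a (21.3), Scn2b (15.7) and Scn1a (13.2) formed a lower tier whose neighbours overlapped in range, together with the non-member Scn3b (22.1). A gap then separated the non-members Scn4a (1.64) and Scn2a (0.716) and the member Scn3a (0.466), which had 95 to 301 raw counts per library. Scn4b and Scn7a, Scn9a and Scn3b, Scn1a and Scn4a, and Scn4a and Scn2a were the neighbours in this order whose ranges did not overlap. Per kb of coding sequence the short beta subunits moved up, with Scn4b first at 604 CPM per kb and Scn9a (91.7) next above Scn7a (89.8), so the place of a beta subunit among the alphas depends on which length is used.

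**Figure D2:**
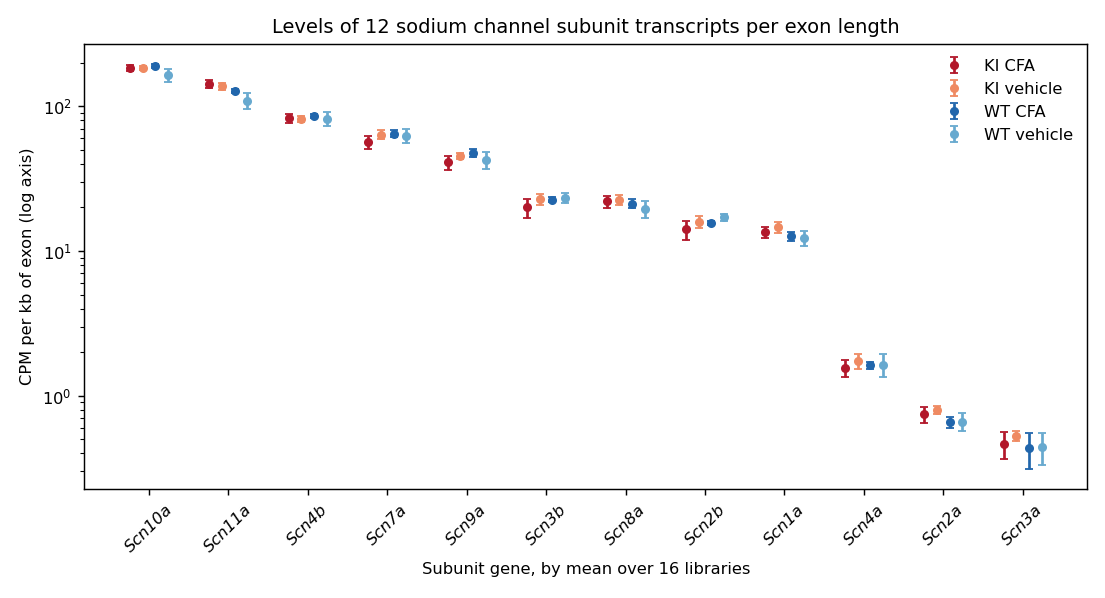
Points show the mean level of each of 12 subunit transcripts in CPM per kb of exon on a log axis, with the SD over 4 libraries as bars, for KI CFA, KI vehicle, WT CFA and WT vehicle. Levels span from 180 for Scn10a to 0.466 for Scn3a as means over all 16 libraries, and a step separates Scn1a at 13.2 from Scn4a at 1.64.

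Scn10a and Scn11a together made up most of the alpha subunit transcript pool in every library. The pool is the 7 alpha members with Scn2a and Scn4a, each per kb of exon. The joint share of Scn10a and Scn11a in it was 70.7 ± 0.526% in KI CFA, 68.3 ± 0.433% in KI vehicle, 68.0 ± 0.919% in WT CFA and 66.3 ± 0.370% in WT vehicle (SD, n = 4 each). Scn1a and Scn8a, the channels of myelinated fibres, together took 7.69 ± 0.653% in KI CFA, 7.90 ± 0.915% in KI vehicle, 7.30 ± 0.398% in WT CFA and 7.67 ± 0.217% in WT vehicle. The last set of shares overlapped between all groups.

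Scn11a encodes Nav1.9 (Entrez 24046), the channel behind a persistent current near the resting potential of nociceptors. It was higher in KI ganglia than in WT ganglia after vehicle and over both injections together. In the edgeR fit of all 16 libraries without covariates, it was the single member that passed in any comparison. Its level was 851, 747, 840 and 821 CPM in KI vehicle 1 to 4, against 671, 673, 711 and 528 CPM in WT vehicle 1 to 4. After CFA it was 784, 835, 845 and 906 CPM in KI 1 to 4, against 782, 751, 723 and 750 CPM in WT 1 to 4. Every KI library lay above every WT library with the same injection, with 747 against 711 CPM at the nearest point after vehicle and 783.556 against 782.040 CPM after CFA. Both gaps were smaller than the SD within either group. Over all 16 libraries the genotypes overlapped, because KI vehicle 2 lay below 3 of the WT CFA libraries.

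Scn11a averaged 815 ± 46.6 CPM in KI vehicle and 646 ± 80.5 CPM in WT vehicle, and 842 ± 50.1 CPM in KI CFA and 752 ± 24.2 CPM in WT CFA (SD, n = 4 each). The Scn11a difference of KI over WT after vehicle was 0.33 ± 0.07 on the log2 scale (SE; 95% interval 0.18 to 0.49; edgeR quasi-likelihood adjusted p = 0.0168), which is 1.26-fold. Over both injections it was 0.25 ± 0.05 (0.14 to 0.36; edgeR adjusted p = 0.00476). After CFA alone it was 0.16 ± 0.07 (0.01 to 0.32; edgeR adjusted p = 0.35), which did not pass. The effect of genotype was not shown to differ between injections, since the interaction was -0.17 ± 0.10 (edgeR adjusted p = 0.718), and -0.08 without WT vehicle 4. Without WT vehicle 4, the lowest library, the vehicle difference was 0.25 and still passed (edgeR adjusted p = 0.0158). It ceased to pass without KI vehicle 1 (0.31, edgeR adjusted p = 0.0504), without KI vehicle 1 and 4, the libraries rich in muscle transcripts (0.30, edgeR adjusted p = 0.186), and in a fit of only the vehicle groups (0.34, edgeR adjusted p = 0.0924). The difference over both injections passed in every fit tried.

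Against all genes, 1 of 9 members called after vehicle stood beside 4.34% of the 15507 genes tested (2.15% that rose), and 1 of 9 over both injections beside 8.96% (4.33% that rose). After CFA 0 of 9 members were called by edgeR and 0 by DESeq2, beside 2.84% of genes (1.09% that rose). An unadjusted p under 0.05 was reached by 4 of 9 members after vehicle beside 23.8% of genes, by 3 after CFA beside 12.7%, and by 2 over both injections beside 24.4%. Groups without overlap are also common at this sample size. Scn11a was the 1 member of 9 without overlap between KI and WT after vehicle, beside 14.6% of genes, and again after CFA, beside 8.13%. The members' median difference was 0.16 after vehicle (7 positive, 2 negative; 0.09, with 5 positive and 4 negative, without WT vehicle 4) and -0.03 after CFA (4 positive, 5 negative), against 0.00 over all genes in both. With all libraries and no covariate, the edgeR calls concern Scn11a alone, though Scn1a was also called in some other fits. The calls do not set the members apart as a group.

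Relative to its neighbour Scn10a, Scn11a was higher in each of the 8 KI libraries than in any of the 8 WT libraries. Both genes are expressed in nociceptors, and their ratio within a library does not depend on depth. The ratio of Scn11a to Scn10a counts was 0.572, 0.574, 0.563 and 0.587 in KI CFA 1 to 4, and 0.565, 0.537, 0.579 and 0.543 in KI vehicle 1 to 4. It was 0.500, 0.495, 0.491 and 0.516 in WT CFA 1 to 4, and 0.481, 0.480, 0.530 and 0.476 in WT vehicle 1 to 4. The lowest KI value, 0.537, was thus above the highest WT value, 0.530. As a share of the alpha pool per kb of exon, Scn11a took 28.4% to 30.9% in KI libraries and 25.9% to 27.9% in WT libraries. A share also depends on the rest of the pool. Scn7a averaged 12.9 ± 0.882% in KI and 14.5 ± 0.902% in WT, Scn9a 9.24 ± 0.598% and 10.3 ± 0.399%, and Scn10a 39.5 ± 0.627% and 40.3 ± 0.847% (SD, n = 8 each). The joint share of Scn1a and Scn8a overlapped between all groups. WT vehicle 4 had the lowest ratio of the 16 libraries, 0.476, and the next lowest was 0.480 in WT vehicle 2. Its share of the pool, 25.96%, was the second lowest. The ratio was chosen after its values had been seen and shares its numerator with the test above, so it is given as a description, beside 2.3% of single genes whose 8 KI and 8 WT libraries do not overlap.

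**Figure D3:**
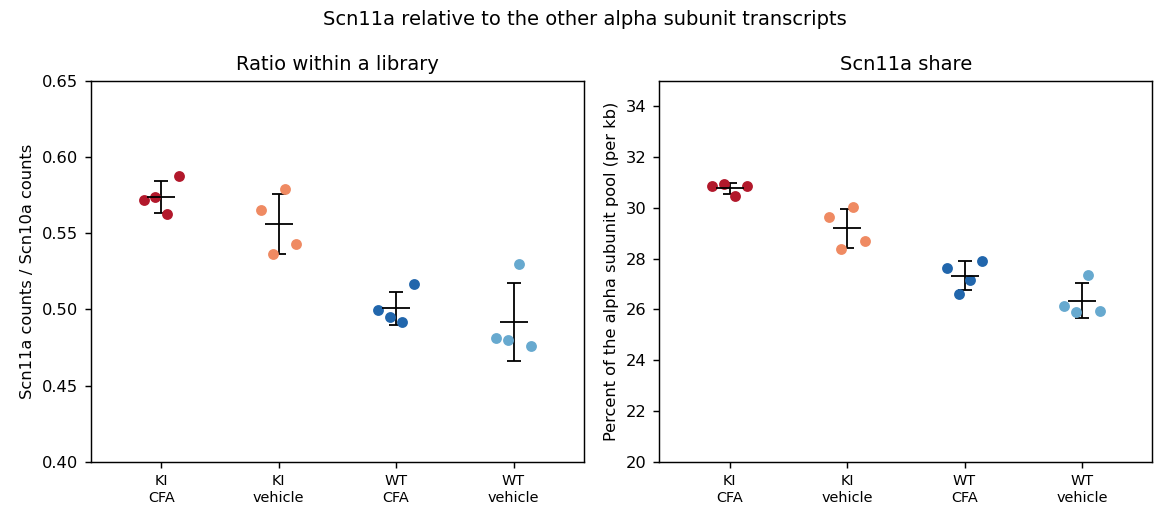
The left panel plots the ratio of Scn11a to Scn10a counts and the right panel the share of Scn11a in the alpha subunit pool per kb of exon, in percent, for the 4 groups. Points are libraries with the mean and SD (n = 4), and both vertical axes start above 0. The KI libraries sit at 0.537 to 0.587 and 28.4% to 30.9%, all above the WT libraries.

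Markers of nociceptor classes moved alongside Scn11a. The 6 markers of non-peptidergic nociceptors, all detected, summed to 1662 to 1802 CPM in KI CFA, 1617 to 1746 in KI vehicle, 1530 to 1586 in WT CFA and 1286 to 1498 in WT vehicle. The 6 markers of peptidergic nociceptors summed to 1177 to 1395 CPM in KI CFA, 1165 to 1276 in KI vehicle, 2021 to 2388 in WT CFA and 1999 to 3005 in WT vehicle. Across the 16 libraries Scn11a correlated with the non-peptidergic score at r = 0.93 and with the peptidergic score at r = -0.77. Markers of A-fibre neurons, all 6 detected, moved with genotype too. Their mean log2 CPM was 7.75 to 8.31 in KI CFA and 7.81 to 8.15 in KI vehicle, against 7.38 to 7.54 in WT CFA and 7.28 to 7.51 in WT vehicle. Their summed level overlapped between genotypes. With the A-fibre score Scn11a correlated at r = 0.65 and Scn1a at r = 0.67 (0.61 each without WT vehicle 4). These points share 2 genotypes and their libraries, and the part of cell type make-up in the Scn11a difference was not tested.

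Scn10a (Nav1.8, Entrez 20264), which carries most of the tetrodotoxin-resistant current of nociceptors, did not pass in any comparison with all libraries and no covariate. Its level was 1505, 1393, 1450 and 1511 CPM in KI vehicle 1 to 4, against 1394, 1403, 1341 and 1110 CPM in WT vehicle 1 to 4. After CFA it was 1369, 1455, 1503 and 1542 CPM in KI 1 to 4, against 1565, 1517, 1471 and 1452 CPM in WT 1 to 4. The genotypes overlapped after both injections. The KI over WT difference was 0.16 ± 0.06 after vehicle (edgeR adjusted p = 0.141) and -0.03 ± 0.06 after CFA (edgeR adjusted p = 0.922). The interval after CFA, from -0.17 to 0.10, limits any difference there to -10.9% to 7.19%. Without WT vehicle 4 the difference after vehicle was 0.09. With a score of the sensory neuron markers as covariate, a fit chosen after seeing the data, it passed (0.19, edgeR adjusted p = 0.0489).

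Scn9a (Nav1.7, Entrez 20274), which amplifies small depolarisations, had 496, 466, 525 and 600 CPM in KI CFA 1 to 4, against 602, 658, 602 and 570 CPM in WT CFA 1 to 4. After vehicle it had 609, 543, 583 and 582 CPM in KI 1 to 4, against 591, 581, 573 and 428 CPM in WT 1 to 4. In KI CFA 3 of 4 libraries lay below all WT CFA libraries, and KI CFA 4 lay among them. The KI over WT difference was -0.22 ± 0.09 after CFA (edgeR adjusted p = 0.277) and 0.09 ± 0.09 after vehicle (edgeR adjusted p = 0.572), and neither passed. Without WT vehicle 4 the vehicle difference was -0.0070.

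Scn7a (Nax, Entrez 20272) varied with Scn9a across libraries. It had 377, 398, 402 and 475 CPM in KI CFA 1 to 4, against 483, 493, 434 and 480 CPM in WT CFA 1 to 4. After vehicle it had 486, 419, 475 and 490 CPM in KI 1 to 4, against 449, 485, 506 and 393 CPM in WT 1 to 4. The same 3 KI CFA libraries that were low in Scn9a were the lowest of the CFA libraries in Scn7a, at -0.19 ± 0.08 for KI over WT (edgeR adjusted p = 0.297). After vehicle the difference was 0.03 ± 0.08 (edgeR adjusted p = 0.872), and -0.04 without WT vehicle 4.

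Scn1a (Nav1.1, Entrez 20265), known in mice for a part in mechanical pain carried by A-fibres, came next after Scn11a by p between KI and WT after vehicle and over both injections. It had 155, 180, 148 and 168 CPM in KI vehicle 1 to 4, against 152, 141, 138 and 113 CPM in WT vehicle 1 to 4. After CFA it had 133, 150, 167 and 151 CPM in KI 1 to 4, against 134, 153, 145 and 132 CPM in WT 1 to 4. The groups overlapped in both. The KI over WT difference was 0.26 ± 0.09 after vehicle (edgeR adjusted p = 0.0851) and 0.09 ± 0.09 after CFA (edgeR adjusted p = 0.792). Under DESeq2 the vehicle difference passed (0.26, DESeq2 adjusted p = 0.0427), and without WT vehicle 4 it was 0.18. It passed too with the split of WT source numbers (0.26, edgeR adjusted p = 0.0393) or a sensory neuron score (0.30, edgeR adjusted p = 0.0356) as covariate. Over both injections the difference was 0.17 (edgeR adjusted p = 0.0845). That difference passed with DESeq2 (DESeq2 adjusted p = 0.0496), with either covariate (edgeR adjusted p = 0.0452 and 0.0353) and without KI CFA 1 (edgeR adjusted p = 0.0494).

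Scn8a (Nav1.6), the channel of mature nodes of Ranvier, ranged over 329 to 387 CPM in KI vehicle, against 244 to 342 in WT vehicle. After CFA it ranged over 310 to 386 CPM in KI, against 309 to 365 in WT. The KI over WT difference was 0.20 ± 0.09 after vehicle (edgeR adjusted p = 0.199) and 0.05 ± 0.09 after CFA, and the vehicle difference was 0.10 without WT vehicle 4. Scn3a, the member with the lowest counts and the largest share of stretches found in other genes, ranged over 5.83 to 7.03 CPM in KI vehicle against 3.65 to 6.87 in WT vehicle. After CFA it ranged over 4.83 to 7.40 CPM in KI against 3.39 to 7.01 in WT. Its differences had SEs of 0.21 after vehicle and 0.20 after CFA, so that only large changes would be seen.

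Of the beta subunits, Scn4b, which is linked to resurgent current, was the steadiest member. Its libraries lay between 346 and 454 CPM with a coefficient of variation of 6.83% over all 16. The KI over WT difference was -0.01 ± 0.07 after vehicle (95% interval -10.2% to 10.3%) and -0.06 ± 0.07 after CFA (-13.2% to 6.64%). Scn2b, whose product binds alpha subunits through a disulfide bond and raises their surface level, had 70.0, 55.1, 60.02 and 77.3 CPM in KI CFA 1 to 4, against 75.1, 71.0, 74.6 and 69.9 CPM in WT CFA 1 to 4. After vehicle it had 80.5, 64.5, 73.7 and 78.3 CPM in KI 1 to 4, against 85.2, 76.3, 80.0 and 75.5 CPM in WT 1 to 4. KI CFA 2 and 3 and KI vehicle 2 were the 3 lowest of 16. The KI over WT difference was -0.15 ± 0.09 after CFA (edgeR adjusted p = 0.564) and -0.10 ± 0.09 after vehicle (edgeR adjusted p = 0.547).

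**Figure D4:**
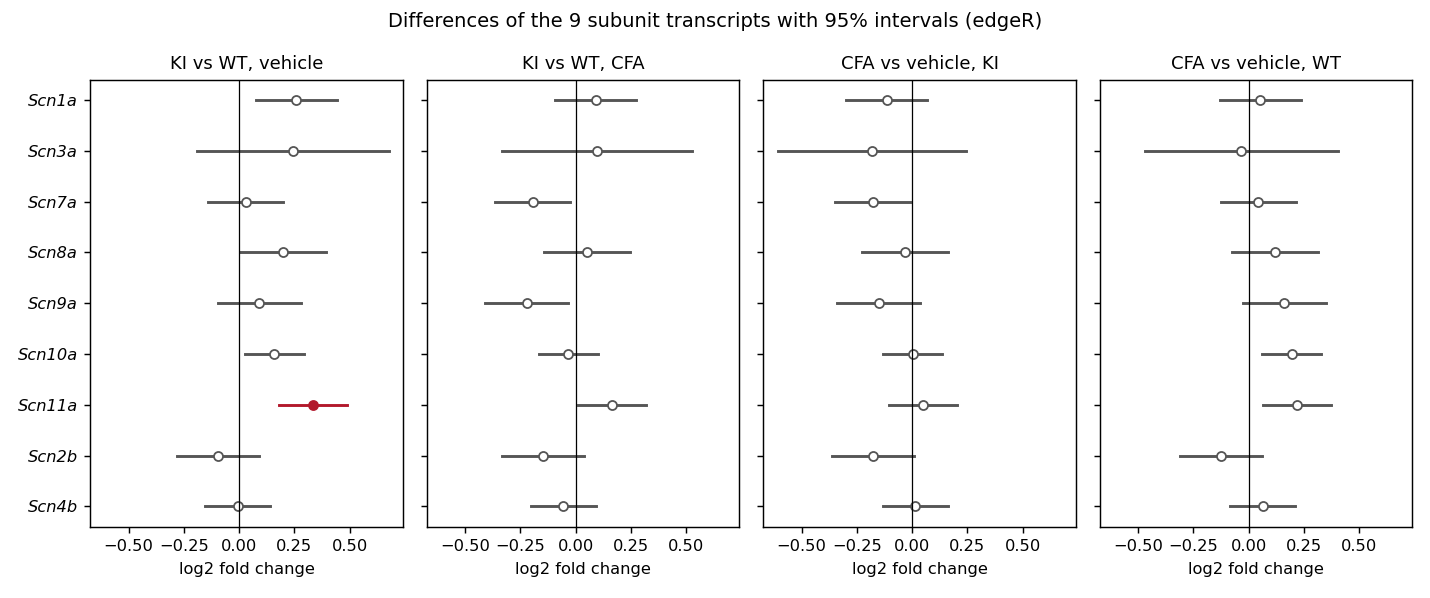
Log2 fold changes of the 9 members with 95% intervals from edgeR are shown on the horizontal axis for KI vs WT after vehicle, KI vs WT after CFA, CFA vs vehicle in KI and CFA vs vehicle in WT. The filled point is the difference with an adjusted p under 0.05, Scn11a at 0.33 in KI vs WT after vehicle, and open points did not pass.

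CFA moved no member past the threshold in either genotype. In KI, 0 of 9 members were called by edgeR and 0 by DESeq2, beside 0.0% of genes called by edgeR, and 1 member had an unadjusted p under 0.05, beside 5.68% of genes. That member was Scn7a (-0.18 ± 0.08, edgeR adjusted p = 0.869). In WT, 0 of 9 were called by edgeR and 0 by DESeq2, again beside 0.0% of genes, and 2 had an unadjusted p under 0.05, beside 6.96% of genes. Those were Scn10a (0.19 ± 0.06, edgeR adjusted p = 0.681) and Scn11a (0.22 ± 0.07, edgeR adjusted p = 0.701). In WT the CFA and vehicle libraries did not overlap for 3 of 9 members, Scn10a, Scn11a and Scn2b, beside 3.02% of genes. Scn10a and Scn11a were higher after CFA, while Scn2b was lower, at 69.9 to 75.1 CPM against 75.5 to 85.2 CPM (-0.13 ± 0.09, edgeR adjusted p = 0.713). For Scn10a, WT CFA lay at 1452 to 1565 CPM against 1110 to 1403 in WT vehicle. Without WT vehicle 4 the WT differences were 0.12 for Scn10a and 0.13 for Scn11a. In KI, 0 of 9 members lacked overlap between CFA and vehicle, beside 4.32% of genes. Averaged over both genotypes 0 of 9 were called, beside 0.0258%, with 3 at an unadjusted p under 0.05, beside 6.57% of genes.

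The change of the genotype difference with CFA was negative for all 9 members, with a median of -0.17 on the log2 scale, against 50.9% positive values over all genes. It was not particular to the members. The 3 other subunits compared were all negative (median -0.13). Of 17 partners that anchor, traffic or modify sodium channels, 13 were negative and 4 positive (median -0.097). None of the 9 was called by edgeR or DESeq2, beside 0.0% of genes, and 2 had an unadjusted p under 0.05, beside 6.29% of genes. They were Scn9a (-0.31 ± 0.13, edgeR adjusted p = 0.718) and Scn10a (-0.19 ± 0.09, edgeR adjusted p = 0.718). Without WT vehicle 4 the median was -0.08 and 7 of 9 were negative. Members share libraries and neurons, so the count of signs is not 9 separate observations.

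Several pairs of members varied together across the 16 libraries. Scn1a and Scn8a had r = 0.85 on log2 CPM (0.74 without WT vehicle 4), and Scn7a and Scn9a had r = 0.81 (0.80 without it). Scn10a and Scn11a had r = 0.84, which dropped to 0.60 without WT vehicle 4. Scn8a also followed Scn4b (0.74, and 0.48 without WT vehicle 4) and Scn10a (0.71 and 0.21), and Scn9a followed Scn10a (0.70 and 0.39). Within groups, with each group mean removed and WT vehicle 4 kept, r was 0.91 for Scn10a and Scn11a and 0.89 for Scn7a and Scn11a. It was 0.87 for Scn9a and Scn10a, 0.84 for Scn9a and Scn11a and 0.90 for Scn8a and Scn4b. With group means left in, Scn7a and Scn11a had r = 0.20 (-0.14 without WT vehicle 4), and Scn9a and Scn11a had 0.38 (-0.19). The within-group values were not computed without WT vehicle 4. Scn2b and Scn4b, neighbours on chromosome 9, had r = -0.33. Scn2b followed Scn7a (0.58, and 0.67 without WT vehicle 4) and Scn9a (0.48 and 0.72) and ran against Scn8a (-0.46 and -0.60). All these points share the genotypes, depths and dissections of the same libraries.

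**Figure D5:**
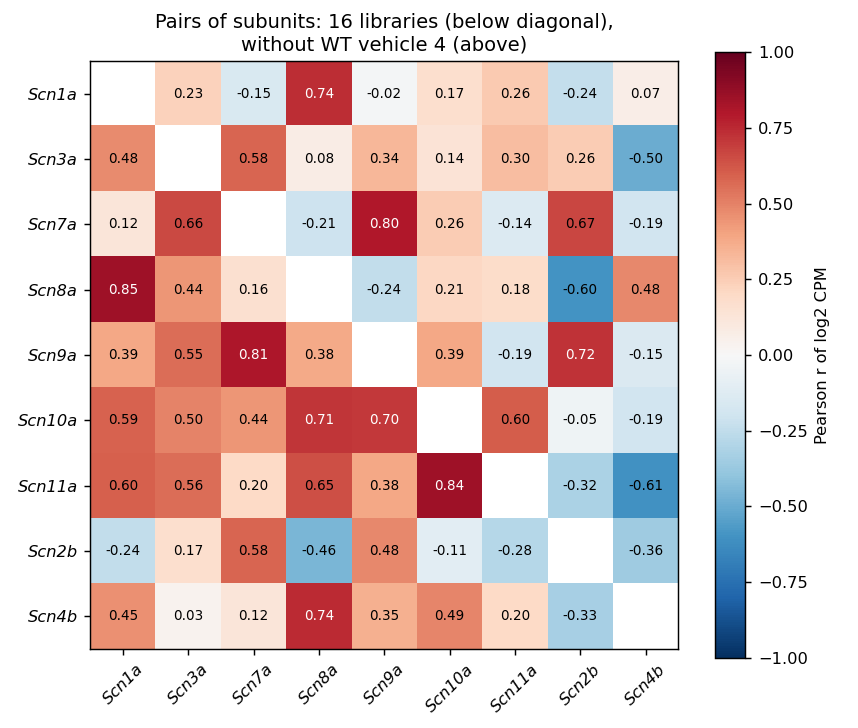
The grid shows Pearson r of log2 CPM for each pair of the 9 members, over 16 libraries below the diagonal and over the 15 other than WT vehicle 4 above it. The strongest pairs below the diagonal are Scn1a with Scn8a at 0.85, Scn10a with Scn11a at 0.84 and Scn7a with Scn9a at 0.81.

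The genes outside the set whose log2 CPM followed each member most closely were sought among those averaging 10 CPM or more. Scn11a was followed by Anks1b and the sodium-activated potassium channel Kcnt1 (r = 0.96 each), Scn10a by the release factor Unc13a and Mtcl1 (0.96 each), and Scn9a by Plcxd2 and Atp8a1 (0.92 each). Scn1a was followed by Wwp1 (0.96) and Unc80 (0.95), a subunit of the sodium leak channel complex, and Scn8a by Strbp (0.96) and the potassium channel Kcna2 (0.94). Scn7a was followed by Cacna2d2 (0.88) and the leak channel pore Nalcn (0.86), Scn3a by Zbtb39 and Spen (0.85 each), and Scn4b by Syt2 (0.95) and Bcat1 (0.90). Scn2b was followed by the homeobox genes Hoxd10 and Hoxd11 (0.90 each), which mark position along the spinal axis. Without the 2 libraries farthest from the median of the gene that followed, these values were 0.82 to 0.96 apart from 0.57 for both genes with Scn3a and 0.74 for both with Scn2b. Each was the largest of the values computed for its member, over 16 libraries.

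Hoxd10 and Hoxd11 split the KI libraries, and several members split with them. Hoxd10 was at 9.67, 4.75 and 5.25 CPM in KI CFA 1, 2 and 3 and at 7.21 CPM in KI vehicle 2, against 16.7 to 21.7 CPM in the other 4 KI libraries and 17.4 to 25.9 CPM in the 8 WT libraries. Scn2b lay at 55.1 to 70.0 CPM in the 4 KI libraries low in Hoxd10 and at 73.7 to 80.5 CPM in the other 4. Scn9a lay at 466 to 543 CPM in the low 4 and at 582 to 609 CPM in the other KI libraries.
Scn7a lay at 377 to 419 CPM in the low 4 and at 475 to 490 CPM in the other 4. Scn3a was also without overlap, so that 4 of 9 members separated these KI libraries, beside 7.2% of genes. Hoxd10 was found as the gene most like Scn2b, so the separation of Scn2b follows from that choice and its part of the count is no finding. Scn7a and Scn9a varied with Scn2b in the same libraries (r = 0.58 and 0.48, and 0.67 and 0.72 without WT vehicle 4). Their separation is thus not independent of that choice, and the count beside 7.2% of genes is no fair comparison. Of the subunits outside the set, Scn2a and Scn3b separated these KI libraries too. Scn11a overlapped, at 747 to 845 CPM in the low 4 and 821 to 906 CPM in the others, as did Scn1a, Scn8a, Scn10a and Scn4b. The split was noticed in the data and is given as a description. In a fit without these 4 libraries, which leaves KI CFA with 1 library assumed to vary like the rest, Scn11a was at 0.37 after vehicle (edgeR adjusted p = 0.0321). There the KI over WT differences after CFA were -0.02 for Scn9a and 0.01 for Scn7a, against -0.22 and -0.19 with all libraries, and neither passed. The part of dissection level in these differences was not tested.

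Of the 3 subunits outside the set that were compared, none passed between KI and WT. Scn2a was at 0.28 ± 0.12 after vehicle (edgeR adjusted p = 0.16), and Scn3b at -0.03 ± 0.09. Scn4a, the skeletal muscle channel, was at 0.08 ± 0.13; it had 11.9 and 13.8 CPM in KI vehicle 1 and 4, the libraries rich in muscle transcripts, and the second of these values was the highest of 16. The Scn4a value of KI vehicle 1 was below those of WT vehicle 1, 2 and 3 (13.2, 12.1 and 12.4 CPM). Scn4a correlated with the muscle score at r = 0.35 over 16 libraries (0.63 without WT vehicle 4). Scn2a, not a muscle channel, did so at r = 0.43 (0.67), so the correlation was not particular to Scn4a.

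Of 17 partners that anchor, traffic or modify sodium channels, 0 rose and 1 fell in KI after vehicle, 0 rose and 2 fell after CFA, and 1 rose and 2 fell over both injections, beside 4.34%, 2.84% and 8.96% of all genes called in either direction in these comparisons. The median partner difference was 0.04 after vehicle and -0.04 after CFA, against 0.00 over all genes in both. Nrcam, an adhesion molecule that helps gather channels at nodes, had 119, 116, 120 and 129 CPM in KI vehicle 1 to 4, against 160, 152, 141 and 134 CPM in WT vehicle 1 to 4. After CFA it had 94.5, 105, 105 and 116 CPM in KI 1 to 4, against 152, 167, 140 and 138 CPM in WT 1 to 4. The genotypes did not overlap in any of these sets. Nrcam fell by 0.51 ± 0.07 on the log2 scale after CFA (edgeR adjusted p = 0.000628) and by 0.28 ± 0.07 after vehicle (edgeR adjusted p = 0.0389). Over both injections its difference was -0.39 (-0.43 to -0.31 in 10 alternative fits). That call and the CFA call held in each of 16 fits with 1 library left out.

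Cntn1, the paranodal adhesion protein contactin that raises channel surface levels, fell by 0.27 ± 0.06 after CFA (edgeR adjusted p = 0.014), with 395 to 442 CPM in KI against 497 to 536 CPM in WT. Over both injections the Cntn1 difference was -0.23, a call that held in each of 16 fits with 1 library left out. Ank3, which encodes ankyrin-G, the anchor of sodium channels at the axon initial segment and nodes, rose by 0.22 ± 0.06 over both injections (edgeR adjusted p = 0.0361), and its genotypes overlapped. The vehicle call of Nrcam ended when any of 10 single libraries was left out (-0.31 to -0.23), the CFA call of Cntn1 with any of 3 (-0.27 to -0.24) and the call of Ank3 over both injections with any of 9 (0.19 to 0.23). The Nrcam vehicle call also ended with the muscle score as covariate (-0.29, edgeR adjusted p = 0.0783), with only the groups compared (-0.27, edgeR adjusted p = 0.071) and without KI vehicle 1 and 4 (-0.31, edgeR adjusted p = 0.168). The Ank3 call ended with the muscle score (0.23, edgeR adjusted p = 0.101) and without KI vehicle 1 and 4 (0.19, edgeR adjusted p = 0.174). The fit without the 4 KI libraries low in Hoxd10 leaves KI CFA with 1 library. There the calls of Nrcam after vehicle (-0.26) and after CFA (-0.36) ended. Those of Cntn1 after CFA (-0.27) and over both injections (-0.24) and of Ank3 (0.26) ended too.

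Of 6 genes of the sodium leak channel and pump, 0 were called after vehicle, 0 after CFA and 1 over both injections, beside 4.34%, 2.84% and 8.96% of all genes. The leak channel pore gene Nalcn, not called, averaged 76.0 CPM in KI vehicle against 76.1 in WT vehicle, and 69.0 in KI CFA against 78.5 in WT CFA. The called gene was Unc80, which varied with Scn1a across libraries. Unc80 rose by 0.33 ± 0.10 over both injections (edgeR adjusted p = 0.0373) with overlapping genotypes. That call ended without any 1 of 9 libraries (0.30 to 0.34). It ended too with limma-voom (0.25, limma adjusted p = 0.0616), with the muscle score (0.37, edgeR adjusted p = 0.0611), without KI vehicle 1 and 4 (0.33, edgeR adjusted p = 0.108) and without the 4 KI libraries low in Hoxd10 (0.28, edgeR adjusted p = 0.322).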

How the data were processed

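The authors deposited raw read counts for each gene, with no normalisation. Per the labels' protocols, poly-A RNA was read as single ends of 50 bases with a strand-selecting kit. The submitters' processing notes name HTSeq 0.6.1p1 and SAMtools 1.5, TopHat2 2.1.1 over Bowtie2 2.3.5.1, bcl2fastq 2.20 and the build mm10. Settings and annotation are not given in the sources used here.

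Groups came from sample titles. All 16 libraries entered 1 edgeR 4.0.16 quasi-likelihood fit (R 4.3.3) in which each group had its own mean, with TMM factors. The filterByExpr step left 15507 genes, the 9 members among them. Calls needed an adjusted p under 0.05 (Benjamini-Hochberg, over these genes). Biological variation between replicates, as a common coefficient, came to 11.8%. A prior count of 2 entered log2 CPM. The fit was tested on simulated counts. Alternatives included DESeq2 1.42.0 and limma 3.58.1. GENCODE coding sequences were aligned with mafft 7.526, and positions came from RefSeq. Depth ran from 22742209 to 40910947 counts per library. Pooling leaves no value per animal, and nothing states that libraries were prepared apart, so p-values measure the spread between these libraries.

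The members and gene lists were chosen with earlier results of these data known. The genes named were the members, 3 other subunits, called genes of the partner list and of the sodium leak channel, the 2 genes most like each member, Ntrk3 and marker genes. Some genes and sequences that this rule covers are not reported here.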

Additional observations from a re-analysis of the deposited data

Results flagged for a closer look

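In WT vehicle, Scn9a had 428 CPM in WT vehicle 4, and the other 3 libraries had 573 to 591 CPM, so that this library lay far below the rest of its group. The same library was the lowest of 16 in 5 other members. Its summed satellite glia markers (5115 CPM) and peptidergic markers (3005 CPM) were the highest of 16, and the part of either in the low Scn9a value was not tested. Scn2a, a subunit outside the set, had 9.20 CPM in KI vehicle 2 and 10.4 to 10.7 CPM in the other KI vehicle libraries. Of 48 groups examined for such a library, 2 stood out, and chance gives about 1 in 20.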

How the results depend on the processing

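Differences below are log2, KI over WT or CFA over vehicle. Over both injections Scn11a stayed called in every fit (0.21 to 0.32). Members called after vehicle (1 with all libraries) numbered 2 with DESeq2 and 2 with the split of WT source numbers as covariate, Scn1a and Scn11a in both. They numbered 4 with the sensory neuron score as covariate (Scn1a, Scn8a, Scn10a and Scn11a). They numbered 0 in a fit of only the groups compared and in the fit without KI vehicle 1 and 4. Leaving out single libraries gave 0 to 1, with 0 without KI vehicle 1. Over both injections (1) there were 2 with DESeq2, with the WT split and with the neuron score, and 1 to 2 without single libraries. With the replicate block, Scn11a was at 0.34 after vehicle (edgeR adjusted p = 0.0316) and no member call changed; of the partners, the Nrcam vehicle call ended (-0.28, edgeR adjusted p = 0.0627). Libraries with the same title number correlated at -0.147 to 0.133 in their departures from group means. Such low values show no clear pairing by title number but cannot exclude one, and pairing by source number was not examined. The neuron score fit, the fit without KI vehicle 1 and 4 and the fit without the 4 KI libraries low in Hoxd10 were chosen after seeing the data.

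The differences whose sign changed had not been called; most were near 0 with all libraries, but some were not, such as Scn7a (-0.19) and Scn2b (-0.15) in KI over WT after CFA and Scn3a (-0.18) and Scn9a (-0.15) for CFA in KI. With limma-voom, KI over WT after vehicle was -0.0084 for Scn7a and -0.025 for Scn4a, CFA in WT was -0.019 for Scn1a, and the interaction was 0.018 for Scn4b. Without KI vehicle 1 and 4, the vehicle difference was -0.034 for Scn7a, 0.021 for Scn4b and -0.000211 for Scn4a, CFA in KI was -0.011 for Scn4b and the interaction 0.051 for Scn2b. With the muscle score, it was 0.019 for Scn4b and -0.0086 for Scn4a after vehicle, and CFA in KI was -0.015 for Scn4b. With the neuron score, it was 0.043 for Scn4b after vehicle. There CFA in WT was -0.034 for Scn1a, 0.0097 for Scn3a, -0.0058 for Scn8a and -0.055 for Scn4b, and CFA in KI -0.078 for Scn10a, -0.033 for Scn11a and -0.14 for Scn4b. Without the 4 KI libraries low in Hoxd10, the difference was 0.026 for Scn3b after vehicle. After CFA it was 0.012 for Scn7a, -0.030 for Scn8a, 0.042 for Scn10a, 0.093 for Scn2b and 0.068 for Scn3b. CFA in KI was 0.13 for Scn3a, 0.023 for Scn9a and -0.060 for Scn4b, and the interaction 0.16 for Scn3a and 0.13 for Scn2b. The cause was not tested.

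Single libraries left out gave KI over WT after vehicle of -0.038 to 0.079 for Scn7a, -0.00697 to 0.13 for Scn9a, -0.080 to 0.054 for Scn4b, -0.046 to 0.15 for Scn4a and -0.081 to 0.028 for Scn3b. After CFA they gave -0.068 to 0.25 for Scn3a and -0.00443 to 0.10 for Scn8a. CFA in WT ranged over -0.027 to 0.11 for Scn1a, -0.19 to 0.13 for Scn3a, -0.023 to 0.094 for Scn7a and -0.010 to 0.12 for Scn4b. CFA in KI ranged over -0.089 to 0.019 for Scn8a, -0.022 to 0.035 for Scn10a and -0.038 to 0.050 for Scn4b. The interaction ranged over -0.32 to 0.00557 for Scn3a, -0.14 to 0.017 for Scn2b and -0.11 to 0.025 for Scn4b.

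All genes called after vehicle (673) numbered 1487 with DESeq2, 334 with the muscle score, 1999 with the WT split, 214 with only the groups compared, 1577 with the neuron score, 132 without KI vehicle 1 and 4 and 303 without the 4 KI libraries low in Hoxd10. After CFA (441) they numbered 663 with DESeq2 and 14 without those 4. Over both injections (1390) they numbered 812 with the muscle score, 2171 with the WT split, 778 without KI vehicle 1 and 4 and 295 without those 4. For CFA against vehicle, DESeq2 called 15 genes in KI, 24 in WT and 57 over both genotypes.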
